A study of Mus musculus with 21 samples.

Results

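The interferon-induced genes described here were Ifit1, Ifit2, Ifit3, Ifi44, Ifi44l, Isg15, Usp18, Rsad2, Mx1 and Mx2, 10 of the 24454 genes in the deposited RNA-seq table. They were chosen by name with earlier results of these libraries known: interferon genes were among those that differed most between Terf1 F/F +Cre and +GFP cells, and they had also been followed in the RTEL1 C1252A/C1255A line, so both of those differences are described here without a test. The table covered 21 libraries of mouse embryonic fibroblasts (MEFs) in 7 groups of 3. Rtel1 F/F MEFs, which carry floxed alleles of Rtel1, a helicase that unwinds telomeric loops and G4-DNA, were infected with an adenovirus for GFP (+GFP) or for Cre (+Cre), which deletes the floxed alleles, and were collected after 96 h. Another group was infected with the GFP virus and given 10 μM TMPyP4, a porphyrin that stabilises G4-DNA, for the last 48 h. The RTEL1 C1252A/C1255A line was Rtel1 F/F MEFs that also carried a pBabe vector for RTEL1 with both cysteines changed, again +GFP or +Cre. Terf1 F/F MEFs (Trf1f/f in the sample titles), with floxed alleles of the telomere-binding shelterin gene Terf1, were infected +GFP or +Cre, and the labels give no time for them. Every group had thus received an adenovirus, and an uninfected group was not analysed here. Replicates are titled biological replicates, but nothing states that they came from separate animals or cultures, so the p-values measure the spread between these libraries, which may be technical.

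Interferons are secreted proteins that a cell makes after its nucleic acid sensors meet viral or misplaced self RNA or DNA. Binding of type I interferon to the IFNAR1 and IFNAR2 chains activates a complex that holds STAT2 and IRF9 and binds the interferon-stimulated response element in the promoters of target genes. IFIT proteins bind foreign RNA, ISG15 is a ubiquitin-like modifier that USP18 removes from its targets, RSAD2 (viperin) makes a nucleotide that blocks viral polymerases, MX proteins are GTPases that trap viral particles, and IFI44 and IFI44L are widely used interferon response markers. USP18 also damps signalling at the receptor.

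The response element can be read in the start-site regions of several members. RefSeq promoter windows (GRCm38.p6, the assembly that mm10 names, from 250 bases before to 50 bases after the start site) matched 7 of the 10 members in 8 windows, and Usp18, Mx1 and Mx2 had no entry. The motif GAAANNGAAA, searched on both strands (TTTCNNTTTC on the other) with overlapping matches counted, was present in 4 of these 8 windows, those of Ifit1, Ifit3, Isg15 and Rsad2, against 3.44% of all 32851 windows. The stretches that hold the motif, with matches in capitals, are printed below 5′ to 3′ in the direction of each gene, followed by the region around the start of Ifi44, which holds no match and is shown because Ifi44 had the lowest ratio of Rtel1 F/F +Cre to +GFP among the members.
Ifit1, chr19:34640755-34640843, plus strand: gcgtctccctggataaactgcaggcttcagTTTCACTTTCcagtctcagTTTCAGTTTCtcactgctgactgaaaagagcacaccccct
Ifit3, chr19:34583343-34583446, plus strand: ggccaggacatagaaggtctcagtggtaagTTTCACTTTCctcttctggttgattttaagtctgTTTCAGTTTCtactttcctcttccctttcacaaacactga
Isg15, chr4:156200845-156200926, minus strand: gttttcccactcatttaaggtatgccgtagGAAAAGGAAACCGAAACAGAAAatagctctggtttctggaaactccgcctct
Rsad2, chr12:26456533-26456602, minus strand: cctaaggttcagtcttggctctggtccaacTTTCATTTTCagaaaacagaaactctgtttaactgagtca
Ifi44, chr3:151749881-151749990, minus strand: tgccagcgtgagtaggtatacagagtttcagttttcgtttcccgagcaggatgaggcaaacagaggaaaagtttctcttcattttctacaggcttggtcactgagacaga
In Isg15 3 overlapping matches formed 1 run of repeated GAAA blocks, between 78 and 57 bases before the start site. Ifit1 and Ifit3 each held 2 separate matches. The 104 bases shown for Ifit3 were identical at 104 positions in the window of its neighbour copy Ifit3b. The Ifit1 stretch also lay inside the window of Ifit1bl2, which is transcribed the other way. No match was found in the windows of Ifit2, Ifi44 and Ifi44l, which says only that these letters were not in those bases. The search allowed only 2 bases between the blocks, and the Ifi44 stretch holds TTTC blocks at other spacings.

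In the same annotation Ifit2 (chr19:34550550-34576534), Ifit3 (chr19:34583119-34588982) and Ifit1 (chr19:34640889-34650009) lie in a row on the plus strand of chromosome 19. Ifi44 (chr3:151730922-151749910) and Ifi44l (chr3:151758737-151762891) are neighbours on the minus strand of chromosome 3. Mx1 (chr16:97447035-97462906, minus strand) and Mx2 (chr16:97536081-97560901, plus strand) are neighbours on chromosome 16, and RefSeq classes both as transcribed pseudogenes in this reference strain. Isg15 lies at chr4:156199424-156200818 on the minus strand, Usp18 at chr6:121245906-121270917 on the plus strand and Rsad2 at chr12:26442743-26456452 on the minus strand.

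Total counts ran from 32069888 to 51938593 per library. The targeted genes followed the labels. Rtel1 fell from 61.8 ± 3.84 to 29.5 ± 2.56 counts per 1000000 counts (CPM, SD, n = 3) after Cre in Rtel1 F/F cells, with an adjusted p of 5.4e-09 in edgeR, and stood at 332.3 and 264.6 CPM in the mutant line +GFP and +Cre, which also carries the vector. Terf1 was at 29.3 ± 1.21 CPM in Terf1 F/F +GFP cells and at 5, 2 and 1 counts in the 3 Terf1 F/F +Cre libraries. Of 7 fibroblast markers, 6 exceeded 1 CPM in all groups, while Thy1 had only 1 to 25 counts in the 15 libraries of Rtel1 F/F origin, beside means of 259.2 and 223.2 CPM in Terf1 F/F +GFP and +Cre cells. Of the blood cell markers, Adgre1 and Cd3e had no count in any library and Ptprc at most 3. Csf1r, a receptor of macrophages, was at 23, 27 and 18 counts in Rtel1 F/F +GFP and 62, 61 and 50 counts in Rtel1 F/F +Cre libraries and rose (log2 1.60, SE 0.263, adjusted p 5.62e-05 by edgeR). The CPM were computed on library sizes scaled by the trimmed mean of M values (TMM). In such bulk samples fewer cells that express a gene and less RNA per cell cannot be told apart.

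The order of the groups was the same at its top for all 10 members. Terf1 F/F +Cre libraries had the highest levels, Terf1 F/F +GFP libraries came next, and both lay above every library of Rtel1 F/F origin with no overlap. Among the 5 groups of Rtel1 F/F origin, untreated Rtel1 F/F +GFP cells stood above the other 4 without overlap for Ifit1, Ifit3, Ifi44, Isg15, Usp18, Mx1 and Mx2. For Ifit2 and Rsad2 that group overlapped with other groups, and Ifi44l was at 0 or 1 counts in all 15 of those libraries. The share of all genes that separate between groups without overlap was not counted. The floor of 3 counts corresponded to 0.0601 to 0.0668 CPM in untreated Rtel1 F/F +GFP cells.

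**Figure D1:**
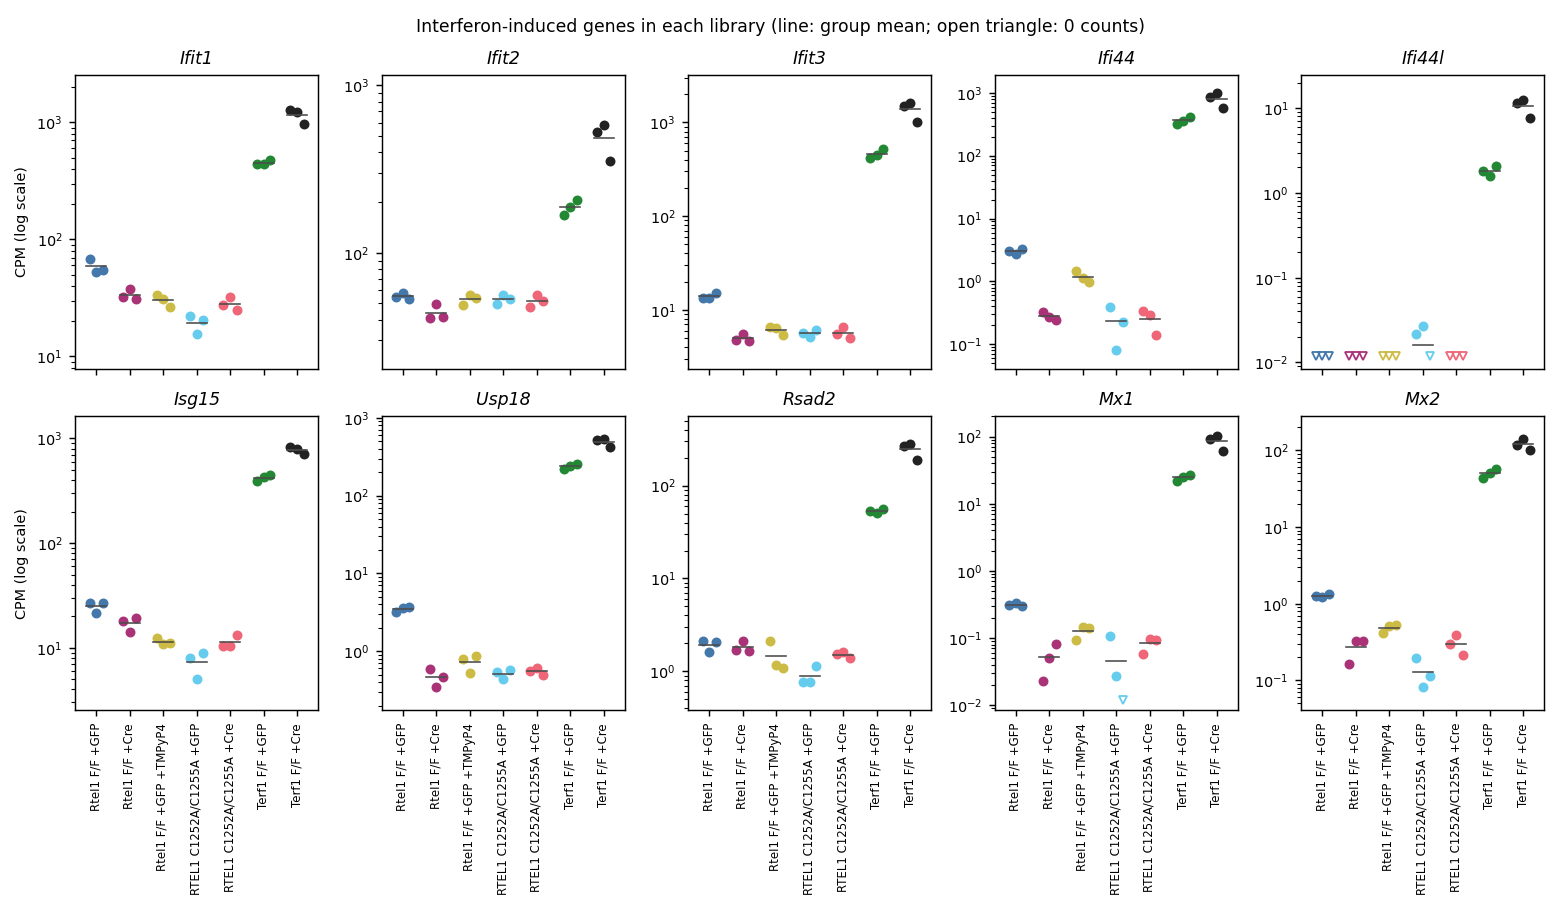
CPM of the 10 members in each of the 21 libraries on log axes, 1 panel a gene, with points for libraries, lines for group means and open triangles for 0 counts. Terf1 F/F libraries are the highest in every panel, and Rtel1 F/F +GFP libraries lie above the other groups of Rtel1 F/F origin for 7 of the genes.

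The members also differed from one another in level. Per length, in transcripts per 1000000 transcripts (TPM), Isg15 was the most abundant in Rtel1 F/F +GFP cells at 84.2 ± 8.15 TPM (SD, n = 3), then Ifit1 at 47.4 ± 6.43, Ifit2 at 29.1 ± 2.03 and Ifit3 at 15.2 ± 1.02 TPM. Usp18 had 4.31 ± 0.369 TPM, Ifi44 2.20 ± 0.152, Mx2 1.11 ± 0.0252, Rsad2 1.06 ± 0.115 and Mx1 0.24 ± 0.0265 TPM. In Terf1 F/F +Cre cells Isg15 again led at 2503 ± 202.9 TPM, with Ifit3 at 1449 ± 321.3 TPM and Ifit1 at 905 ± 128.8 TPM after it. The lowest level there was that of Ifi44l, at 18.1 ± 4.30 TPM.

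Deletion of Rtel1 was asked about first, in Rtel1 F/F +Cre against +GFP cells. Of the 10 members 7 fell and none passed the test in the other direction, at an adjusted p of at most 0.01 (quasi-likelihood test of edgeR, Benjamini-Hochberg adjusted over all 13719 genes tested). In the same comparison 21% of all tested genes were lower and 22.0% higher. Over the 8 members above 3 counts in some library of both groups the median log2 fold change was -1.15, beside -0.03 over all tested genes. The drop was deepest for Ifi44 and Usp18 and was not shown for Ifit2 and Rsad2. Deviations from the group means correlated at -0.02, 0.06 and 0.13 between +Cre and +GFP libraries of the same replicate number. Between +Cre and TMPyP4 libraries they correlated at 0.724, 0.758 and 0.409. Nothing states whether the +GFP libraries were handled together with the others, and a difference in handling was not tested.

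Among the IFIT genes, Ifit3 was at 13.2, 13.3 and 15.3 CPM in the +GFP libraries and at 4.73, 5.48 and 4.70 CPM in the +Cre libraries. It fell 2.80-fold, by 1.49 on the log2 scale (SE 0.154, adjusted p 2.93e-07 by edgeR). Ifit1 went from 68.5, 52.3 and 55.3 CPM to 32.1, 37.8 and 30.7 CPM, a log2 fold change of -0.81 (SE 0.143, adjusted p 1.18e-04 by edgeR). No +Cre library reached a +GFP library for either gene. Ifit2, which also lies in this cluster, had 54.6, 57.5 and 53.2 CPM against 40.6, 49.6 and 41.6 CPM, and though the groups did not overlap its log2 fold change of -0.33 (SE 0.135) did not pass, with an adjusted p of 0.0490 by edgeR.

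Ifi44 was at 3.00, 2.73 and 3.33 CPM in +GFP cells and at 0.326, 0.273 and 0.246 CPM in +Cre cells, which was 14, 11 and 9 counts. It fell 10.6-fold (log2 -3.40, SE 0.318, adjusted p 1.39e-07 by edgeR). The neighbour Ifi44l had 0 counts in all 6 libraries and gave no fold.

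Usp18, the protease that takes ISG15 off proteins, was at 3.16, 3.56 and 3.69 CPM against 0.583, 0.347 and 0.464 CPM. It fell 7.40-fold (log2 -2.89, SE 0.172, adjusted p 4.09e-10 by edgeR). Isg15 itself moved far less, from 26.6, 21.4 and 26.8 CPM to 18.0, 14.3 and 19.2 CPM. The groups did not overlap, and its log2 fold change of -0.54 (SE 0.158) passed with an adjusted p of 0.00766 by edgeR, a call that was lost without +Cre replicate 1 or 2 or without +GFP replicate 1 or 3 (adjusted p up to 0.0303) and when only the 2 groups were fitted.

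Both Mx genes were low and fell further. Mx2 was at 1.25, 1.21 and 1.32 CPM in +GFP cells and at 0.163, 0.323 and 0.328 CPM in +Cre cells, a 4.67-fold fall (log2 -2.22, SE 0.247, adjusted p 7.08e-07 by edgeR). Mx1 had 14, 16 and 15 counts against 1, 2 and 3 counts, a ratio of 0.160 per effective library size with a 95% exact interval of 0.0557 to 0.375 for counting error, and it passed with an adjusted p of 5.93e-04 by edgeR. Rsad2 overlapped between the groups: it was at 2.12, 1.62 and 2.04 CPM without and 1.70, 2.13 and 1.67 CPM with Cre, and the log2 fold change was -0.07 (SE 0.219, adjusted p 0.806 by edgeR).

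**Figure D2:**
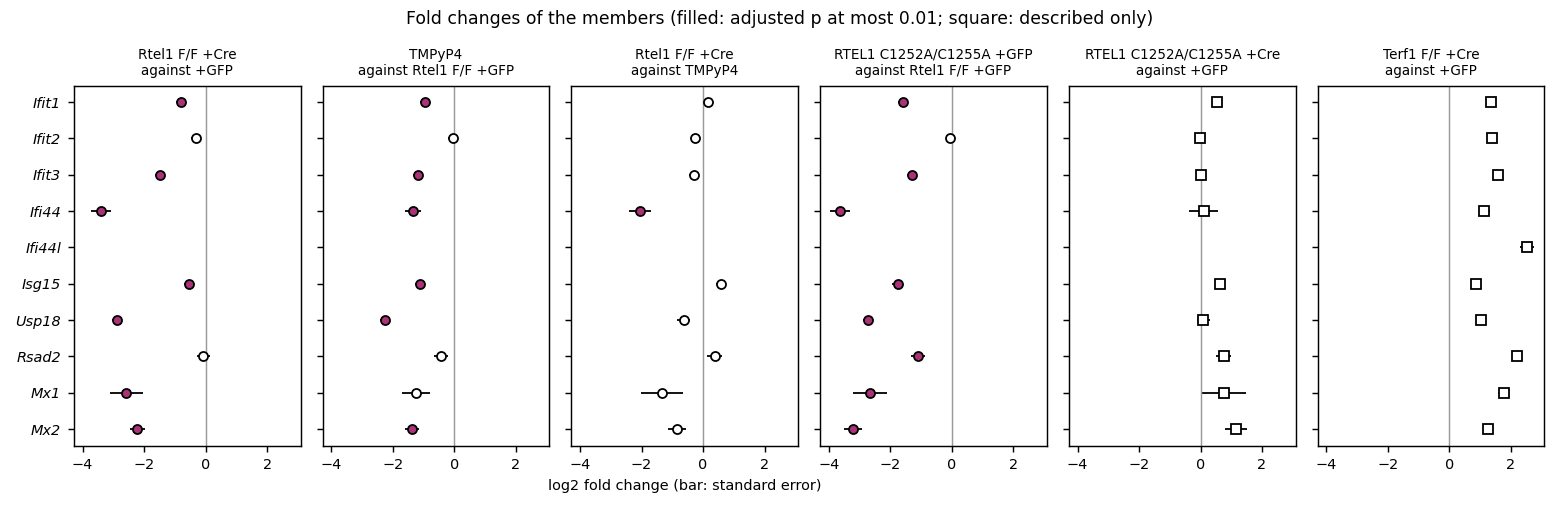
Log2 fold change of each member in 6 comparisons, with standard errors as bars, filled circles for an adjusted p of at most 0.01, open circles for values that did not pass and squares for the comparisons that are only described. Ifi44 and Usp18 lie farthest to the left after Cre in Rtel1 F/F cells at -3.40 and -2.89, and every member lies to the right of 0 in Terf1 F/F cells.

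TMPyP4 was compared with the same 3 Rtel1 F/F +GFP libraries, so that a high or low value in those controls enters both comparisons. Deviations of TMPyP4 and +GFP libraries of the same number correlated at 0.02, 0.05 and 0.13, and a difference in handling was again not tested. Of the 10 members 6 fell, while 13.4% of all tested genes were lower and 16.6% higher. The median log2 fold change was -1.18 over the 9 members above the floor and -0.01 over all tested genes. Usp18 had the largest log2 fold change, at 0.793, 0.530 and 0.860 CPM, a 4.78-fold fall (log2 -2.26, SE 0.161, adjusted p 1.71e-08 by edgeR). Ifi44 was at 1.46, 1.16 and 0.979 CPM, a 2.55-fold fall (log2 -1.35, SE 0.253, adjusted p 4.05e-04 by edgeR). For both genes all treated libraries lay below all control libraries.

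Ifit1 stood at 33.3, 30.8 and 26.5 CPM after TMPyP4 (log2 -0.96, SE 0.144, adjusted p 4.24e-05 by edgeR), Ifit3 at 6.63, 6.48 and 5.40 CPM (log2 -1.18, adjusted p 9.71e-06 by edgeR) and Mx2 at 0.412, 0.506 and 0.525 CPM (log2 -1.37, adjusted p 9.33e-05 by edgeR). Isg15 was at 12.3, 10.8 and 11.0 CPM, and its 2.19-fold fall (log2 -1.13, SE 0.162) passed with an adjusted p of 2.75e-05 by edgeR. Ifit2, at 48.9, 56.1 and 53.6 CPM, overlapped the controls, with a log2 fold change of -0.06 and a 95% interval of -0.35 to 0.23. Mx1 had 3, 6 and 6 counts and did not pass (adjusted p 0.0310 by edgeR). Rsad2 spread from 2.12 CPM in replicate 1 to 1.16 and 1.08 CPM in the other libraries and did not pass (log2 -0.44, adjusted p 0.129 by edgeR). Without that first replicate its log2 fold change was -0.78 with an adjusted p of 0.00689.

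Set directly against each other, Rtel1 F/F +Cre and TMPyP4 libraries differed at 1 of the 10 members, Ifi44, where 6.13% of all tested genes were higher and 9.09% lower in +Cre cells. Ifi44 was 4.15-fold lower after Cre than after TMPyP4 (log2 -2.05, SE 0.363, adjusted p 4.56e-04 by edgeR), with no overlap. Isg15 lay the other way, at 14.3 to 19.2 CPM after Cre and 10.8 to 12.3 CPM after TMPyP4, and its log2 difference of 0.59 (SE 0.162) had an adjusted p of 0.0116 by edgeR. Here libraries with the same replicate number deviated together, and a further fit held only these 2 groups and was blocked on that number. In it Isg15 passed as higher (log2 0.60, adjusted p 2.65e-07 by edgeR) and Ifit2 as lower (log2 -0.26, adjusted p 4.49e-04 by edgeR), which made 3 members of 10. For Ifit1 the difference was 0.15 with a 95% interval of -0.15 to 0.46, for Ifit3 -0.31 with -0.65 to 0.03, for Usp18 -0.63 with -1.09 to -0.17 and for Rsad2 0.37 with -0.13 to 0.87, none of which passed without the block.

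Before any deletion, the line that carries RTEL1 C1252A/C1255A already had lower members than Rtel1 F/F cells. In RTEL1 C1252A/C1255A +GFP against Rtel1 F/F +GFP, 8 of the 10 members fell, and 22.1% of all tested genes were lower and 22.6% higher. The median log2 fold change was -1.76 over 9 members and -0.03 over all tested genes. This comparison shares its control libraries with the preceding ones, and the vector, the line and any batch cannot be told apart in it. Its mutant-line libraries also belong to a comparison known when the genes were chosen. The p-values are therefore not independent of that choice.

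Ifi44 was at 0.388, 0.0814 and 0.228 CPM in the mutant line, 18, 3 and 10 counts, and was 12.3-fold lower than in Rtel1 F/F +GFP cells (log2 -3.62, SE 0.323, adjusted p 7.86e-08 by edgeR). Mx2 was at 9, 3 and 5 counts (log2 -3.21, SE 0.280, adjusted p 3.88e-08 by edgeR), and Mx1 at 5, 1 and 0 counts, a ratio of 0.151 with a 95% exact interval of 0.0525 to 0.354 (adjusted p 4.11e-04 by edgeR). These 3 genes were close to the limit of detection in the mutant line. Usp18 was at 0.538, 0.434 and 0.571 CPM (log2 -2.74, SE 0.167, adjusted p 5.63e-10 by edgeR).

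Isg15 was lower here than in any other group, at 8.03, 5.05 and 8.89 CPM (log2 -1.76, SE 0.165, adjusted p 1.06e-07 by edgeR). Ifit1, at 22.2, 15.7 and 20.3 CPM, had a log2 fold change of -1.60 and Ifit3, at 5.71, 5.13 and 6.08 CPM, one of -1.30, with adjusted p of 7.39e-08 and 1.14e-06 by edgeR. Rsad2 was at 0.775, 0.760 and 1.14 CPM, and unlike in the Cre and TMPyP4 comparisons its fall passed (log2 -1.10, SE 0.240, adjusted p 7.89e-04 by edgeR). Whether Rsad2 differed between those comparisons was not tested. Ifit2, at 49.5, 55.9 and 53.0 CPM, overlapped the controls at a log2 fold change of -0.06 with a 95% interval of -0.35 to 0.23.

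Deletion of the endogenous alleles in that line, RTEL1 C1252A/C1255A +Cre against +GFP, is described only. Ifit1 was at 27.4, 32.4 and 24.9 CPM after Cre, a log2 fold change of 0.54 (SE 0.145). Isg15 was at 10.5, 10.3 and 13.1 CPM (log2 0.62, SE 0.165), Rsad2 at 1.53, 1.60 and 1.41 CPM (log2 0.75, SE 0.248) and Mx2 at 0.294, 0.393 and 0.211 CPM (log2 1.14, SE 0.361). For these 4 genes every +Cre library was above every +GFP library, and the share of all genes that separate so was not counted. Ifit2, at 47.6, 56.2 and 51.4 CPM, Ifit3, at 5.51, 6.55 and 5.05 CPM, Ifi44, at 17, 12 and 6 counts, Usp18, at 0.549, 0.614 and 0.493 CPM, and Mx1, at 3, 4 and 4 counts, overlapped with +GFP. Of all tested genes 0.525% were higher at the threshold and 0.569% lower, from which nothing is read about the members. Libraries with the same number deviated together in this line too, and the replicate block gave a log2 fold change of 0.62 for Isg15.

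In the Terf1 F/F line, too, the change after Cre is given as a description, since the genes were chosen with it known. All 10 members were higher in each +Cre library than in any +GFP library. How many of all genes separated in this way was not counted. Of all tested genes 2.65% were higher at the threshold and 0.765% lower, from which nothing is read about genes chosen with these values known. The median log2 fold change was 1.37 over the 10 members and 0.00 over all tested genes. Replicate 3 of the +Cre group was the lowest of its 3 libraries for every member.

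Ifi44l and Rsad2 had the largest folds. Ifi44l was at 1.81, 1.59 and 2.08 CPM in +GFP cells and at 11.5, 12.5 and 7.66 CPM in +Cre cells, 5.77-fold higher (log2 2.53, SE 0.227). Rsad2 was at 52.9, 51.2 and 56.5 CPM against 266.0, 281.6 and 188.3 CPM, 4.58-fold higher (log2 2.20, SE 0.172). Mx1 went from 21.9, 25.4 and 27.1 CPM to 92.1, 101.2 and 60.3 CPM (log2 1.77, SE 0.180).

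The IFIT genes were close to one another. Ifit3 was at 413.2, 446.2 and 518.4 CPM against 1489, 1622 and 1021 CPM (log2 1.58, SE 0.142), Ifit2 at 169.1, 187.2 and 206.3 CPM against 524.3, 580.7 and 353.0 CPM (log2 1.37, SE 0.136), and Ifit1 at 443.9, 439.0 and 474.7 CPM against 1279, 1236 and 964.3 CPM (log2 1.36, SE 0.143). No +Cre library reached down to a +GFP library for any of the 3, Ifit2 included, which had not passed the test in any comparison among the groups of Rtel1 F/F origin without the block. Mx2 was at 44.2, 50.9 and 56.5 CPM against 118.6, 140.6 and 101.0 CPM (log2 1.25, SE 0.138). Ifi44 was at 319.6, 357.9 and 412.4 CPM against 844.7, 976.0 and 577.3 CPM (log2 1.14, SE 0.189).

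The smallest differences were in the ISG15 pair. Usp18 was at 221.8, 241.5 and 254.3 CPM against 514.7, 529.9 and 417.1 CPM (log2 1.03, SE 0.112). Isg15 was at 387.7, 432.2 and 444.9 CPM against 819.4, 784.8 and 703.9 CPM (log2 0.87, SE 0.154).

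Between lines the levels were much farther apart than within them. In Terf1 F/F +GFP against Rtel1 F/F +GFP cells the 9 members above the floor in both groups were higher and passed, where 30.3% of all tested genes were higher and 24.5% lower. Ifi44l was tested only through its counts in Terf1 F/F libraries, so no call is counted for it. Genotype, line and any batch cannot be told apart in this comparison, and it again uses the shared control libraries. Its Terf1 F/F +GFP libraries also belong to the comparison known when the genes were chosen, so the p-values are not independent of that choice. Ifi44 was 120.1-fold higher (log2 6.91, SE 0.248), Mx1 78.3-fold (log2 6.29), Usp18 68.9-fold (log2 6.11), Mx2 40.0-fold (log2 5.32) and Ifit3 32.9-fold (log2 5.04), with adjusted p between 3.65e-16 and 2.77e-13 by edgeR. Rsad2 was 27.8-fold higher, Isg15 16.9-fold, Ifit1 7.71-fold and Ifit2 3.41-fold. Ifi44l, at 0 counts in all 3 Rtel1 F/F +GFP libraries, was at least 29.1-fold higher, measured against the mean floor of 3 counts per library.

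Fibroblast markers moved in part with these levels. The summed CPM of the 7 markers was 12810 to 13730 in Rtel1 F/F +GFP libraries, 4122 to 6468 after Cre, 6224 to 9284 after TMPyP4, 4820 to 7852 in the mutant line +GFP and 4002 to 6716 in it after Cre. Terf1 F/F libraries had 14050 to 20440 CPM without and 14860 to 18050 CPM with Cre, ranges that overlapped while the members did not. In Rtel1 F/F +Cre against +GFP cells 5 of the 7 markers fell, 1 rose and 1 did not pass. Their part in the members' differences was not tested, nor was that of Csf1r, which rose where 7 members fell. Summed levels of 7 immune cell markers stayed between 0.199 and 1.61 CPM in every library, with 3 or 4 of the 7 at 0 in each group.

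**Figure D3:**
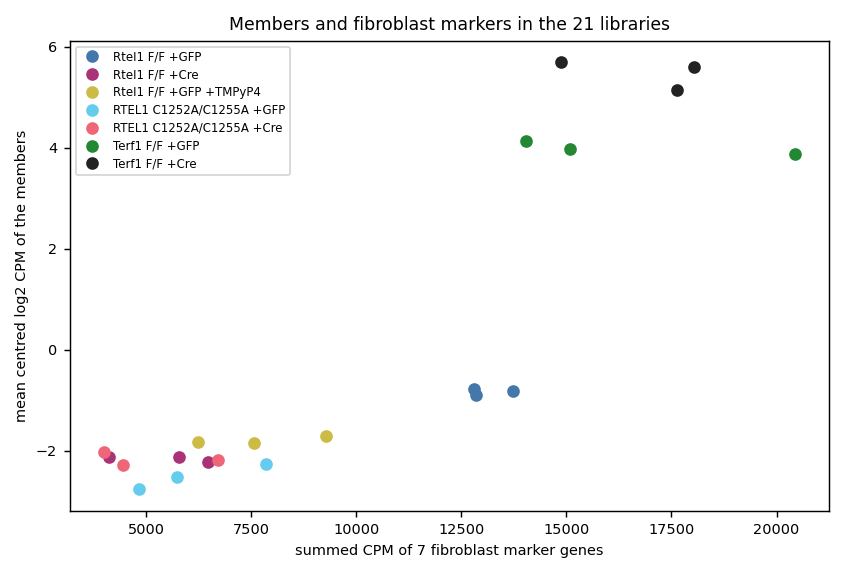
Mean centred log2 CPM of the 10 members against the summed CPM of 7 fibroblast markers, 1 point for each of the 21 libraries, coloured by group. Rtel1 F/F +GFP libraries lie between the other groups of Rtel1 F/F origin and the Terf1 F/F libraries on the vertical axis, and Terf1 F/F +GFP and +Cre libraries differ vertically while their marker sums overlap.

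Apart from the members, 116 other genes of the interferon pathway were followed, of which 100 could be tested. In Rtel1 F/F +Cre cells 59 fell and 4 rose, with a median log2 fold change of -0.71. There 21% of all tested genes were lower and 22.0% higher, with a median of -0.03. After TMPyP4 62 pathway genes fell and 3 rose, with a median of -0.87. The treatment left 13.4% of all tested genes lower and 16.6% higher, with a median of -0.01. In the mutant line +GFP against Rtel1 F/F +GFP 70 pathway genes fell and 1 rose, with a median of -1.10. Here 22.1% of all tested genes were lower and 22.6% higher, with a median of -0.03. These shares of all tested genes also stand beside the counts of the separate pathway lists below. Between Rtel1 F/F +Cre and TMPyP4 7 pathway genes were higher and 8 lower after Cre, or 16 and 15 with the replicate block. Without the block 6.13% of all tested genes were higher and 9.09% lower. After Cre in the mutant line 1 pathway gene was higher by the same threshold, or 16 higher and 1 lower with the block. After Cre in Terf1 F/F cells 72 were higher and none lower, with a median of 0.98. The counts in these last comparisons are descriptions, as for the members. Beside them, 0.525% of all tested genes were higher and 0.569% lower in the mutant line. In Terf1 F/F cells 2.65% were higher and 0.765% lower. Nothing is read about the pathway genes from the shares in these last comparisons.

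**Figure D4:**
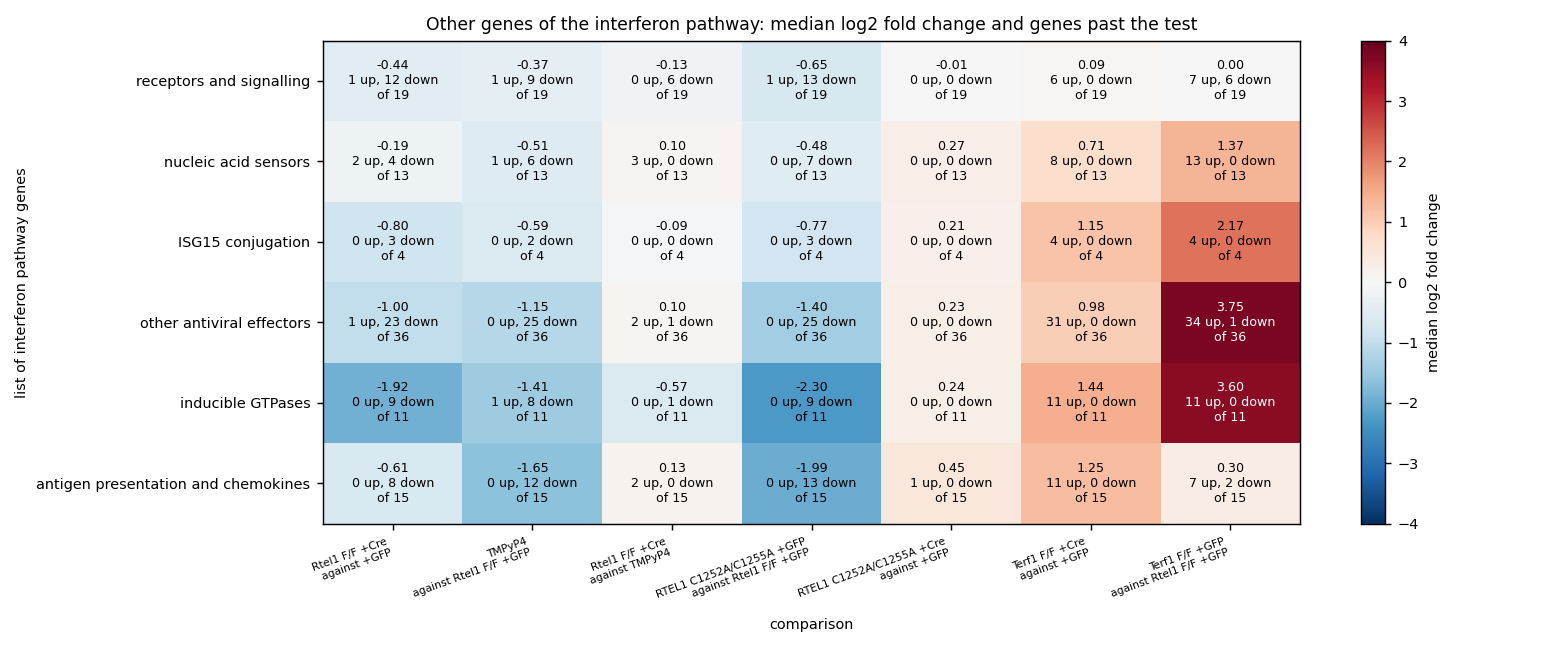
Median log2 fold change of 6 lists of other interferon pathway genes (rows) in 7 comparisons (columns), with the number higher and lower at an adjusted p of at most 0.01 of those tested, counts that are descriptions for Cre in the mutant and Terf1 F/F lines. Inducible GTPases have medians of -1.92 after Cre in Rtel1 F/F cells, -1.41 after TMPyP4 and 1.44 after Cre in Terf1 F/F cells.

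Interferon genes themselves were barely detected. Of 16 listed, 2 were tested, Ifnb1 and Ifna4. Ifnb1, the first interferon made by infected fibroblasts, had 0 to 3 counts in each library of Rtel1 F/F origin, 8, 13 and 8 counts in Terf1 F/F +GFP libraries and 56, 89 and 35 in Terf1 F/F +Cre libraries. That was 0.228 against 1.40 CPM, 6.10-fold higher after Cre with no overlap (log2 2.61, SE 0.440). Ifna4 had no count in any library of Rtel1 F/F origin, 5, 5 and 7 counts in Terf1 F/F +GFP libraries and 12, 24 and 17 after Cre.

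Among 19 genes of receptors and signalling, 12 fell and 1 rose in Rtel1 F/F +Cre cells. Irf7, the transcription factor that amplifies interferon production, led them with a fall from 4.34, 5.88 and 6.29 CPM to 1.17, 0.993 and 0.710 CPM (log2 -2.51, SE 0.251, adjusted p 2.88e-07 by edgeR). It was lower after TMPyP4 (log2 -1.99, adjusted p 6.77e-06 by edgeR) and in the mutant line +GFP (log2 -3.22, adjusted p 3.73e-08 by edgeR). Stat2 (log2 -1.10) and Irf9 (log2 -1.05) fell with it after Cre, at adjusted p of 1.94e-08 and 3.49e-08 by edgeR. No +Cre library reached a +GFP library for any of these. The receptor chains moved less: Ifnar1 fell from a mean of 134.5 to 81.8 CPM (log2 -0.72, adjusted p 5.03e-08 by edgeR) and Ifnar2 from 42.5 to 31.2 CPM (log2 -0.44, adjusted p 3.45e-05 by edgeR). Irf9, Ifnar1 and Ifnar2 were named after their values were seen, so their p-values are not independent of that choice.

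In Terf1 F/F cells Irf7 was at 132.5, 128.4 and 118.4 CPM without and 459.9, 447.0 and 327.0 CPM with Cre (log2 1.70, SE 0.189). Stat2 was at a mean of 237.4 against 424.6 CPM (log2 0.84). Ifnar1 and Ifnar2 did not follow, with log2 fold changes of -0.12 (SE 0.0637) and -0.08 (SE 0.0695). Between Rtel1 F/F +Cre and TMPyP4, Stat2 had the largest difference of the signalling genes that passed the test, 1.43-fold lower after Cre (adjusted p 3.81e-04 by edgeR).

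**Figure D5:**
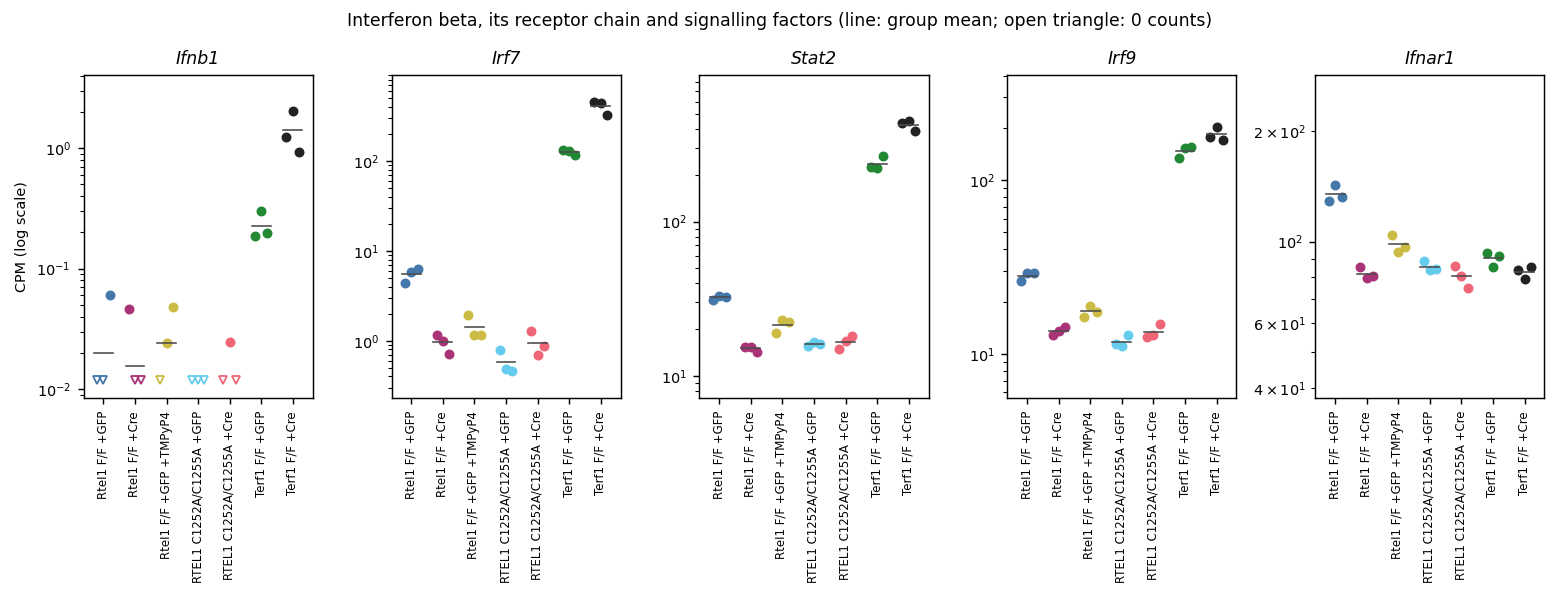
CPM of Ifnb1, Irf7, Stat2, Irf9 and Ifnar1 in the 21 libraries on log axes, with points for libraries, lines for group means and open triangles for 0 counts. Irf7 and Stat2 show the order of groups seen for the members, whereas Ifnar1 is highest in Rtel1 F/F +GFP libraries and between 75.0 and 104.5 CPM in all other libraries.

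Of 13 nucleic acid sensors 4 fell and 2 rose after Rtel1 deletion, near the 21% lower and 22.0% higher among all tested genes, and 8 were higher after Cre in Terf1 F/F cells. Zbp1, which binds Z-form nucleic acid, was at 0.786 CPM in Rtel1 F/F +GFP cells and 0.382 CPM after Cre (log2 -1.04, adjusted p 0.00482 by edgeR), and at 28.3 CPM in Terf1 F/F +GFP cells and 111.6 CPM after Cre (log2 1.98, SE 0.167). Dhx58, a RIG-I-like receptor, was 1.95-fold lower after TMPyP4 than in its control (adjusted p 1.86e-04 by edgeR) and 1.58-fold higher in Rtel1 F/F +Cre than in TMPyP4 cells (adjusted p 0.00898 by edgeR). Of the 4 genes of ISG15 conjugation 3 fell after Rtel1 deletion, Trim25 most (1.78-fold, adjusted p 6.94e-09 by edgeR), and Trim25 was also the largest fall of this list after TMPyP4 (1.70-fold, adjusted p 7.16e-08 by edgeR). All 4 were higher after Cre in Terf1 F/F cells, Herc6, a ligase for ISG15, by the largest fold (2.41-fold). Uba7, the enzyme that activates ISG15, was 4.18-fold lower in the mutant line +GFP than in Rtel1 F/F +GFP cells (adjusted p 1.09e-08 by edgeR).

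Of 36 other antiviral effectors, 23 fell and 1 rose after Rtel1 deletion, and 31 were higher after Cre in Terf1 F/F cells. Of the oligoadenylate synthetase genes, Oas1a, Oas1b and Oas1g had few or no counts in the groups of Rtel1 F/F origin given here. Oasl1 stood at 2.96 CPM in Rtel1 F/F +Cre and 1.65 CPM in TMPyP4 cells. Oas1a had 3, 7 and 8 counts in Rtel1 F/F +GFP libraries and 0 after Cre, Oas1b had 15, 25 and 27 counts against 1, 3 and 3 after TMPyP4 and 0 in the mutant line +GFP, at least 6.47-fold lower against the floor, and Oas1g had 0 counts in Rtel1 F/F +GFP libraries but 676, 669 and 630 in Terf1 F/F +GFP libraries, at least 247.6-fold higher. Oasl1 had the largest fold of this list after Cre in Terf1 F/F cells, from 32.5 to 157.6 CPM (log2 2.28, SE 0.152), and was 1.81-fold higher in Rtel1 F/F +Cre than in TMPyP4 cells (adjusted p 0.00237 by edgeR).

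The inducible GTPases, which attack the membranes around intracellular microbes, fell at 9 of 11 genes after Rtel1 deletion and at 8 of 11 after TMPyP4. Tgtp2 went from 28, 53 and 74 counts to 4, 0 and 0 after Cre (adjusted p 4.07e-05 by edgeR), and Gbp5 from 25, 30 and 25 counts to 3, 4 and 1 after TMPyP4 (adjusted p 7.38e-06 by edgeR). Gbp6 had 7, 0 and 3 counts in the mutant line +GFP against 40, 102 and 101 in Rtel1 F/F +GFP libraries. All 11 were higher after Cre in Terf1 F/F cells, Tgtp1 most, from 47.9 to 203.0 CPM (log2 2.08, SE 0.194). Iigp1 was the farthest apart between lines, with 11, 13 and 14 counts in Rtel1 F/F +GFP and 3464, 4090 and 4087 in Terf1 F/F +GFP libraries. Irgm1 was 1.55-fold lower in Rtel1 F/F +Cre than in TMPyP4 cells (adjusted p 0.00109 by edgeR).

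For antigen presentation and chemokines 8 of 15 fell after Rtel1 deletion, 12 after TMPyP4 and 13 in the mutant line +GFP. Cxcl9 had 1, 7 and 4 counts in Rtel1 F/F +GFP libraries and 0 in both the Cre and the TMPyP4 libraries, close to the floor throughout. The proteasome subunit Psmb9 was 13.2-fold lower in the mutant line +GFP (adjusted p 9.72e-09 by edgeR). The peptide transporter Tap1 had the largest fold of this list between lines, 3.67-fold higher in Terf1 F/F +GFP cells (adjusted p 1.16e-09 by edgeR), and Cxcl11 the largest after Cre in that line (log2 2.71, SE 0.271). Ccl5, a chemokine for T cells, was at 43.2, 42.5 and 47.0 CPM in Rtel1 F/F +Cre and at 19.6, 16.6 and 19.8 CPM in TMPyP4 libraries, 2.37-fold higher after Cre (adjusted p 2.48e-05 by edgeR). It was also the pathway gene called in the mutant line after Cre, at 16.2, 17.5 and 16.6 CPM against 9.17, 4.80 and 8.15 CPM.

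Over the 21 libraries the genes whose log2 CPM was most like the mean of the members, of 11830 compared, included Trim25, Dtx3l, Stat2 and Parp12 (Pearson r 0.997 each). The libraries fall into the Terf1 F/F line and the rest, and that gap sets these values. Within the 15 libraries of Rtel1 F/F origin the same genes had r of 0.925, 0.949, 0.899 and 0.924. There the 36 pairs of the 9 members other than Ifi44l had a median r of 0.764 and ranged from -0.236 to 0.953. Among them Mx1 was near the floor, with 1, 2 and 3 counts in Rtel1 F/F +Cre and 5, 1 and 0 in mutant +GFP libraries. Ifit2 had the lowest median r with the others (0.332) and Rsad2 the next lowest (0.443), and the pair of them gave the lowest value. These are descriptions over libraries that share groups.

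Neighbouring genes of the IFIT family can limit what can be said of single members. Reads from any shared sequence can be split between such genes by the estimation of counts. How alike their transcripts are was not measured. Ifit3b followed Ifit3, from 3.94, 3.21 and 3.65 CPM to 1.68, 1.76 and 1.88 CPM after Rtel1 deletion (log2 -1.02, adjusted p 5.85e-05 by edgeR) and from 137.0, 136.9 and 162.0 to 480.3, 506.2 and 332.4 CPM after Cre in Terf1 F/F cells (log2 1.60, SE 0.136). After TMPyP4 it fell more than Ifit3, with log2 fold changes of -1.75 and -1.18, a difference that was not tested. Ifit1bl2, whose start-site window overlaps that of Ifit1 on the opposite strand, also fell after Rtel1 deletion (log2 -1.03, adjusted p 7.42e-04 by edgeR). After TMPyP4 it did not pass (log2 -0.33, adjusted p 0.214 by edgeR). The neighbour Ifit1bl1 did not pass after Rtel1 deletion (log2 -0.30, adjusted p 0.256 by edgeR) or after TMPyP4 (log2 -0.26, adjusted p 0.354 by edgeR). In the mutant line +GFP Ifit1bl1 did not pass either (log2 -0.59, adjusted p 0.0316 by edgeR). After Cre in Terf1 F/F cells it was higher (log2 0.83, SE 0.167).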

How the data were processed

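Polyadenylated RNA from MEFs was sequenced as strand-specific single-end reads. Per the labels and the study's methods, the authors trimmed reads with cutadapt 1.9.1, aligned them to mm10 with STAR 2.5.2a and estimated counts per RefSeq gene with RSEM 1.3.0. The deposited expected counts, whole numbers in the table, were used for all tests, and the TPM that the authors deposited beside them were used only to compare levels between genes. Total counts were 32069888 to 51938593 per library, so that counting error is small except for genes with few counts, for which counts are given. Intervals and floors of 3 counts cover counting error only.

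Genes with few counts were removed (filterByExpr), library sizes were scaled by TMM, and all 21 libraries were fitted with 1 coefficient per group in edgeR 4.0.16 (robust quasi-likelihood test, 14 residual degrees of freedom, R 4.3.3), with Benjamini-Hochberg adjustment over 13719 genes and a threshold of 0.01. Standard errors are the log2 fold change divided by the square root of F, and 95% intervals use 14 degrees of freedom. The test was checked on simulated counts. No paired design is stated. Deviations of libraries with the same replicate number correlated above 0.1 for every pair only in Rtel1 F/F +Cre with TMPyP4 (0.724, 0.758 and 0.409) and in the mutant line (0.864, 0.839 and 0.424). The blocked values are given there, from fits of only the 2 groups compared.

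The members and the pathway lists were chosen with earlier results of these data known. Named pathway genes are, for each list and comparison, the gene past the threshold with the largest log2 fold change in size. Ifnar1, Ifnar2, Irf9 and the remaining interferon gene values were added after their values were seen. Genes most like the members were ranked by Pearson r of log2 CPM (prior count 2) with the members' mean, among genes of at least 1 CPM on average. As alternatives DESeq2 1.42.0 was run, and edgeR was given DESeq2 size factors or all genes without the filter. Further fits used only the 2 groups compared, with and without the replicate block. An adjusted p of 0.05 was also used, and each library was left out in turn. Values of 1 gene are not reported here. Promoters came from RefSeq (GRCm38.p6).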

Additional observations from a re-analysis of the deposited data

Results flagged for a closer look

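After Cre, 8 members moved in opposite directions in the lines, every Rtel1 F/F +Cre library lying below every Rtel1 F/F +GFP library and every Terf1 F/F +Cre library above every Terf1 F/F +GFP library. The log2 fold change in Terf1 F/F minus that in Rtel1 F/F cells was 4.54 for Ifi44, 4.35 for Mx1, 3.91 for Usp18, 3.47 for Mx2, 3.07 for Ifit3, 2.16 for Ifit1, 1.70 for Ifit2 and 1.41 for Isg15. Ifit2 had not passed the test in Rtel1 F/F cells, and Mx1 had 1 to 3 counts there after Cre. The difference between the lines was not tested, the genes were chosen with the Terf1 F/F values known, and genotype and line cannot be told apart. How many of all genes moved apart in this way was not counted.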

How the results depend on the processing

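With 3 libraries a group precision is limited, and Mx1, Mx2 and Ifi44 were near the floor in several groups. Of 678 recomputed log2 fold changes of members 648 kept their direction and their side of the threshold. Of 168 recomputed counts of genes past it 147 stayed within 1.5 times. The causes of the other values were not tested. In Rtel1 F/F +Cre against TMPyP4 the 1 member called became 2 with DESeq2 and 2 with its size factors, 4 at an adjusted p of 0.05 and 1 to 2 with a library left out. The 15 pathway genes became 2 when only the 2 groups were fitted, 24 at 0.05 and 7 to 11 with a library left out. In the mutant line after Cre counts are only a description and are given for the pathway genes alone. The 1 pathway gene there became 6 with DESeq2 and 0 with only 2 groups. At 0.05 it became 12, and with a library left out 1 to 2.

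The replicate block, fitted to only the 2 groups compared, gave 31 pathway genes and 3 members in Rtel1 F/F +Cre against TMPyP4. It gave 17 pathway genes in the mutant line after Cre. Where numbers did not pair libraries, it gave 40 pathway genes in Rtel1 F/F +Cre against +GFP. The unblocked fit of all 21 libraries gave 63, so that difference holds both the block and the smaller fit. The blocked fit left Mx1 in the mutant line against Rtel1 F/F at an adjusted p of 0.0263 by edgeR.

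Leaving out 1 library turned the direction of values that had not passed the test. Rsad2 in Rtel1 F/F +Cre against +GFP ran from -0.21 to 0.0072, Ifit2 in the mutant line against Rtel1 F/F from -0.0919 to 0.0151, and in the mutant line after Cre Ifit2 from -0.11 to 0.0275, Ifit3 from -0.11 to 0.0924, Ifi44 from -0.25 to 0.67 and Usp18 from -0.0115 to 0.17 (log2 fold change).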
